A study of Mus musculus with 12 samples.

Results

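Genes of 5 ligands of the tumour necrosis factor (TNF) family, 3 of its receptors and 1 adaptor protein were followed across genotype and stimulus in bone marrow-derived macrophages (BMDMs). The ligand genes were *Tnf*, *Tnfsf10*, *Tnfsf13b*, *Tnfsf14* and *Tnfsf15*, the receptor genes *Tnfrsf1a*, *Tnfrsf1b* and *Fas*, and the adaptor gene *Traf1*. They were chosen by name, 9 of the 32301 genes or transcripts on the array. All 9 passed the filter on dim probes, which asks that the 2 arrays of some group both read well above background, and 6 did so on all 12 arrays. The cells came from wild-type (WT) mice and from *Keap1* flox/flox::*LysM*-Cre (KpCKO) mice of 8 weeks, all on a C57BL/6 background. In KpCKO mice Cre is driven by the *lysozyme M* locus and *Keap1* is deleted in the myeloid lineage, and no group with the floxed alleles or Cre alone was among these samples. Bone marrow cells were grown for 7 days with M-CSF and then left untreated (Con), given LPS and IFNγ (M1) or given IL-4 (M2) for 6 h. Each of the 6 groups held 2 arrays, 1 from culture 1, whose mice were male, and 1 from culture 2, whose mice were female, so sex and culture cannot be told apart. Each mouse gave 1 Con, 1 M1 and 1 M2 array.

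Ligands of this family are mostly membrane proteins that act as trimers, on the cell surface or after release by proteases. Their receptors fall into those with a cytoplasmic death domain, which can recruit caspases or kinases that activate NF-κB, and those without one, which bind TRAF adaptors directly. Macrophages are a main source of TNF, and LPS and IFNγ are classical inducers of it. Keap1 marks the transcription factor Nrf2 for degradation, so its loss lets Nrf2 accumulate.

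Values are log2 intensities of a probe after subtraction of the array's 75th percentile, so 0 is the level of that percentile. That percentile was between 548 and 757 intensity units on the WT M1 arrays and between 787 and 1166 on the other 10, and 59.3% to 71.4% of probes were well above background. KpCKO minus WT of *Keap1* was −1.46, −1.71 and −1.81 on the log2 scale in Con, M1 and M2, and *Nqo1*, an Nrf2 target, was higher by 3.23 to 3.52, all past limma's test. *Il6* rose by 13.16 in WT with M1 and *Arg1* by 10.38 with M2. The 4 arrays of a stimulus shared a slide. A genotype difference therefore lies within 1 slide, but stimulus and slide cannot be told apart. Of the macrophage markers, 7 of 7 on the array, *Csf1r* and *Adgre1* among them, were well above background on both arrays of every group.

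M1 stimulation raised 6 of the 9 genes in each genotype. *Tnf*, *Tnfsf10*, *Tnfsf15*, *Tnfrsf1a*, *Fas* and *Traf1* rose between 3.63-fold (*Tnfrsf1a*) and 176-fold (*Tnfsf10*) in WT. In KpCKO they rose from 3.25-fold (*Tnfrsf1a*) to at least 215-fold (*Tnfsf10*). The fold of *Tnfsf10* depended on the background correction in both genotypes. These counts stand against a background in which 34.6% of all genes tested in WT and 24.8% in KpCKO were called higher, and 63.2% and 50.2% were called in either direction. M2 stimulation moved none of the 9 past limma's test in either genotype, with 1 at an unadjusted p under 0.05 in WT and 0 in KpCKO and none by the methods' t-test, where 16.8% and 10.2% of all genes were called (8.63% higher and 8.2% lower in WT, 5.67% and 4.53% in KpCKO). The genotypes differed in 2 of the 9 genes in Con, 3 in M1 and 1 in M2, against 2.21%, 16% and 1.93% of all genes. Of all genes 1.39% were higher and 0.827% lower in KpCKO in Con, 7.41% and 8.6% in M1, and 1.28% and 0.644% in M2. *Tnfrsf1b* was higher in KpCKO in each of the 3 stimuli, while *Tnfsf10* in Con and *Tnfsf15* and *Traf1* in M1 were lower. The adjusted p of these calls lay between 0.0364 and 0.0477, except that of *Tnfsf15* at 0.00562, and no call in Con or M2 was kept when any 1 of the 4 arrays compared was left out.

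**Figure D1:**
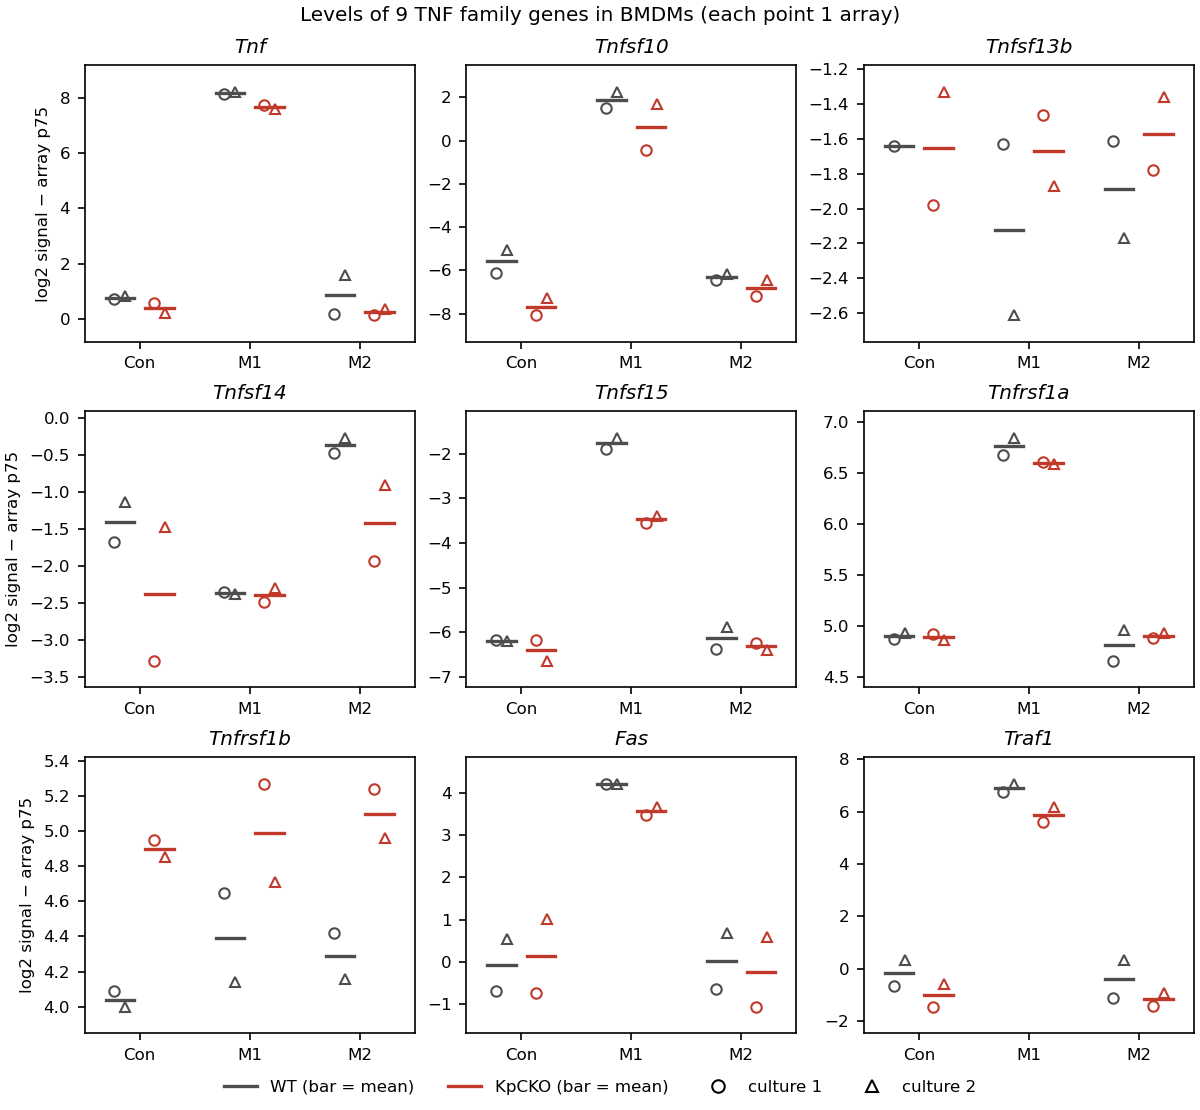
Level of each of the 9 genes by stimulus (x axis) as log2 signal relative to the 75th percentile of the array (y axis, a separate range for each gene), with 1 point per array, circles for culture 1, triangles for culture 2 and bars for the mean of a group in WT (grey) and KpCKO (red). The M1 arrays stand above all Con and M2 arrays for Tnf, Tnfsf10, Tnfsf15, Tnfrsf1a, Fas and Traf1, and the KpCKO arrays of Tnfrsf1b stand above the WT arrays within each stimulus.

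To show the sequence next to which these genes start, the 250 bases upstream of the transcription start are given for *Tnf*, *Fas* and both TNF receptors. They were taken from RefSeq on GRCm38.p6, which matched 9 of 9 genes with 10 windows, and are read 5′ to 3′ on the strand of the gene. Capitals mark matches, on either strand, to the letters of a κB site (GGG and CC with any 5 bases between them) or an ISRE core (GAAA and GAAA with any 2 bases between them), and matches that overlap run together.
*Tnf*, chr17:35202008-35202257 (minus strand): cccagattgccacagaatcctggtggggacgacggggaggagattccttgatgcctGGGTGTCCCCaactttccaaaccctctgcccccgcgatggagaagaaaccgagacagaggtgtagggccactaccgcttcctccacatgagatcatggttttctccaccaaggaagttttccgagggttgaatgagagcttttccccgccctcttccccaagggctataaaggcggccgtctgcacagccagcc
*Fas*, chr19:34290409-34290658 (plus strand): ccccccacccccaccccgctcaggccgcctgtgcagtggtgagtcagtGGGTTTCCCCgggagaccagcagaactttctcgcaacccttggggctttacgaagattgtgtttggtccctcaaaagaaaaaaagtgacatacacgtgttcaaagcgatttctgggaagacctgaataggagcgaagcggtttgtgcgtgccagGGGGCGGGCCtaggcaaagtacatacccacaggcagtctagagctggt
*Tnfrsf1a*, chr6:125349473-125349722 (plus strand): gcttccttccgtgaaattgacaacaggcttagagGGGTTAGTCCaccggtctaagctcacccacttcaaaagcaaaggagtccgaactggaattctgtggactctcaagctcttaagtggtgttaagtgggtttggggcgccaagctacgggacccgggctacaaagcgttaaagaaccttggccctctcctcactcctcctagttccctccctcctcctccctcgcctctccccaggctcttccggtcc
*Tnfrsf1b*, chr4:145246871-145247120 (minus strand): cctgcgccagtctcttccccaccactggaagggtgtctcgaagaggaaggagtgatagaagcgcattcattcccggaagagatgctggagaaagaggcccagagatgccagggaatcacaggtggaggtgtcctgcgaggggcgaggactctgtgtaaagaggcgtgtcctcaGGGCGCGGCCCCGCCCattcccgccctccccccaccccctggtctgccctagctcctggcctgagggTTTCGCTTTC
The windows searched also held the 50 bases after the start. In them, the κB letters matched in 5 of the 9 genes (*Tnf*, *Fas*, *Tnfrsf1a*, *Tnfrsf1b* and *Tnfsf14*) and in 50.8% of 32851 mouse promoter windows, so a match to these loose letters is common. The ISRE core matched in *Tnfrsf1b* and *Tnfsf13b*, and in 3.44% of all windows. The letters of the antioxidant response element, to which Nrf2 binds, matched as TGAGNNNGC in *Tnf*, where the first base of the match is 8 bases after the start, and in 17.6% of all windows. As TGACNNNGC they matched in *Tnfsf13b* and in 12.4% of all windows. The letters of a STAT6 site (TTC and GAA with any 4 bases between them) matched in *Tnfsf13b* and in 6.95% of all windows. None of these letters lay in the windows of *Tnfsf10*, *Tnfsf15* or *Traf1*. A match is a description of the letters, and binding was not measured here.

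*Tnf*, the founding ligand of the family, was measured with probe A_51_P385099. In Con it was at 0.72 and 0.84 in the WT cultures 1 and 2 and at 0.57 and 0.22 in KpCKO. The M1 arrays read 8.12 and 8.20 in WT and at 7.72 and 7.59 in KpCKO. All 4 M1 arrays thus lay far above all Con arrays, and within M1 both KpCKO arrays were below both WT arrays. The M1 response was 7.38 ± 0.381 (SE, n = 2) in WT, 166-fold (limma, adjusted p = 1.23e-05), and 7.26 ± 0.381 in KpCKO, 153-fold (adjusted p = 2.4e-05). The difference between these responses was −0.12, with a 95% interval from −1.39 to 1.16. KpCKO minus WT was −0.50 in M1, with an interval from −1.41 to 0.40 (adjusted p = 0.387), and the 2 cultures gave −0.40 and −0.60. In Con it was −0.39 (adjusted p = 0.782). The interval in M1 therefore left room for both a reduction of more than 2-fold and a small increase. In M2 the levels were 0.18 and 1.6 in WT and 0.16 and 0.37 in KpCKO, so 1 WT array stood apart from the other 3. Without that array the M2 difference from Con in WT turned from 0.11 to −0.61 and the genotype difference in M2 from −0.62 to 0.10, and none of these was called.

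*Tnfsf10* encodes TRAIL, a ligand of death receptors and a known interferon-responsive gene. In M1 it (probe A_51_P448741) was at 1.51 and 2.25 in WT and at −0.45 and 1.68 in KpCKO. In Con it was at −6.10 and −5.06 in WT, whereas the KpCKO arrays read −8.05 and −7.29 and were not well above background. The gene was thus near the floor of the array without stimulation and well measured after M1. The rise in WT was 7.46 ± 0.385 (SE, n = 2), 176-fold (adjusted p = 1.23e-05). In KpCKO the rise was at least 215-fold (adjusted p = 1.59e-05 for the fitted difference of 8.29), a bound because the Con arrays there cannot resolve a lower level. Both sizes depended on how background was removed, and with a normexp background correction the rises were 5.5 in WT and 4.71 in KpCKO on the log2 scale, still past the test. Without the culture 1 or the culture 2 array of KpCKO M1 the KpCKO rise was fitted at 8.99 and 7.58. KpCKO was at least 2.93-fold lower than WT in Con (adjusted p = 0.0477 for the fitted difference of −2.09). With the normexp correction that difference was −0.32 and not past the test, and 6 of 15 alternative settings kept the call. In M1 KpCKO minus WT was −1.27, with an interval from −2.18 to −0.35 (adjusted p = 0.0673). Culture 1 gave −1.96 and culture 2 gave −0.57, and the arrays of the genotypes overlapped. When the culture 2 array of KpCKO M1 was left out, the difference in M1 passed the test, at −1.97 (adjusted p = 0.00947). In M2 the levels were −6.45 and −6.16 in WT and −7.20 and −6.43 in KpCKO, with the culture 1 array of each genotype not well above background.

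*Tnfsf15* encodes TL1A, a ligand that costimulates lymphocytes through the death receptor DR3. Among the 5 ligand genes followed here its genotype difference in M1 had the smallest adjusted p. In M1 it (probe A_52_P527741) was at −1.88 and −1.64 in WT and at −3.54 and −3.40 in KpCKO, so the genotypes did not overlap and differed by much more than the cultures did. KpCKO was lower by 3.28-fold, a difference of −1.71 ± 0.217 (SE, n = 2) with an interval from −2.23 to −1.20 (adjusted p = 0.00562), and the cultures gave −1.66 and −1.76. In Con the levels were −6.18 and −6.19 in WT and −6.17 and −6.64 in KpCKO. The genotype difference there was −0.22, with an interval from −0.73 to 0.30. The gene rose with M1 in both genotypes, by 4.43 in WT (21.5-fold, adjusted p = 1.01e-05) and by 2.93 in KpCKO (7.63-fold, adjusted p = 8.26e-05). With normexp these rises were 2.45 in WT (adjusted p = 0.00108) and 1.10 in KpCKO (adjusted p = 0.0512), the latter no longer past the test. In both cultures the response was smaller in KpCKO. The test of that difference gave −1.5, with an interval from −2.22 to −0.77, an unadjusted p of 0.00184 and an adjusted p of 0.13, in a test that called 0.0716% of all genes. In M2 the levels ran from −6.40 to −5.88 over the 4 arrays, 2 of which were not well above background. The genotype call in M1 was lost with the normexp correction, at −1.32 (adjusted p = 0.0858). It was also lost at −1.71 with only the groups compared in the model (adjusted p = 0.159) and with the methods' t-test (adjusted p = 0.306).

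*Tnfsf14* encodes LIGHT, which binds the lymphotoxin β receptor and HVEM. Among the 9 genes it was the only one whose M2 arrays in WT lay above both the Con and the M1 arrays. In WT its probe (A_51_P208240) was at −1.67 and −1.14 in Con, −2.35 and −2.38 in M1, and −0.47 and −0.27 in M2, so the 3 stimuli did not overlap. In KpCKO it was at −3.28 and −1.48 in Con, −2.49 and −2.30 in M1, and −1.93 and −0.90 in M2, and here the culture 1 array in Con stood far below that of culture 2. M1 minus Con in WT was −0.96 (interval from −1.96 to 0.04, adjusted p = 0.0834). M2 minus Con was 1.03 in WT (interval from 0.04 to 2.03, adjusted p = 0.142) and 0.96 in KpCKO (interval from −0.04 to 1.96, adjusted p = 0.198). KpCKO minus WT was −0.97 in Con (adjusted p = 0.369), −0.03 in M1 (adjusted p = 0.969) and −1.04 in M2 (adjusted p = 0.326). The cultures gave −1.61 and −0.33 in Con and −1.46 and −0.63 in M2, so both were below 0 but spread widely. None of these differences passed the test.

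*Tnfsf13b* encodes BAFF, a survival factor of B cells. Its level (probe A_51_P257934) ran from −2.61 to −1.33 over 11 arrays, and 1 WT Con array had an outlier spot and was left out. In Con it was at −1.64 in WT culture 1 and at −1.98 and −1.33 in KpCKO. In M1 it was at −1.63 and −2.61 in WT and at −1.46 and −1.87 in KpCKO, and in M2 at −1.61 and −2.17 in WT and at −1.78 and −1.36 in KpCKO. The groups overlapped in every comparison. The largest difference was that between genotypes in M1, at 0.45 with an interval from −0.55 to 1.46 (adjusted p = 0.474), and the fitted values in WT Con rest on 1 array. No comparison called the gene, and the intervals were wide enough to hold changes of 2-fold.

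*Tnfrsf1a* encodes TNFR1, the death-domain receptor of TNF that most cells carry. Its probe (A_52_P192426) was at 4.87 and 4.93 in WT Con and at 4.92 and 4.86 in KpCKO Con. After M1 the level was 6.67 and 6.84 in WT and at 6.60 and 6.58 in KpCKO. In M2 it was at 4.66 and 4.96 in WT and at 4.88 and 4.93 in KpCKO. The M1 arrays stood apart from the other 8, which differed little. The M1 response was 1.86 ± 0.114 (SE, n = 2) in WT, 3.63-fold (adjusted p = 2.25e-05), and 1.70 ± 0.114 in KpCKO, 3.25-fold (adjusted p = 5.54e-05). With quantile normalization the responses were 1.01 in WT and 1.16 in KpCKO, both still past the test. The genotypes differed by −0.01 in Con, −0.16 in M1 and 0.09 in M2. The 95% intervals of these differences ran from −0.27 to 0.26, from −0.43 to 0.10 and from −0.18 to 0.36, so a difference as large as that of *Tnfrsf1b* in Con lay outside all 3.

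*Tnfrsf1b* encodes TNFR2, which lacks a death domain and signals through TRAF adaptors. It was the only 1 of the 9 genes that differed between the genotypes in all 3 stimuli. The stimuli share mice, so these are not independent results. The gene was higher in KpCKO. Its probe (A_52_P228621) was at 4.09 and 4.0 in WT Con and at 4.95 and 4.85 in KpCKO Con. In M1 it was at 4.65 and 4.14 in WT and at 5.27 and 4.71 in KpCKO, and in M2 at 4.42 and 4.16 in WT and at 5.24 and 4.96 in KpCKO. The genotypes did not overlap within a stimulus, and culture 1 was above culture 2 in each group. KpCKO minus WT was 0.86 in Con, a 1.82-fold difference (interval from 0.52 to 1.20, adjusted p = 0.0366). It was 0.60 in M1 (1.52-fold, interval from 0.26 to 0.94, adjusted p = 0.0364) and 0.81 in M2 (1.75-fold, interval from 0.47 to 1.15, adjusted p = 0.0463). The 2 cultures gave nearly the same difference in each stimulus, at 0.86 and 0.86 in Con, 0.63 and 0.57 in M1, and 0.81 and 0.80 in M2. Another probe, A_51_P278282, gave 0.85 in Con (adjusted p = 0.0382), 0.48 in M1 (adjusted p = 0.0652) and 0.72 in M2 (adjusted p = 0.0705), in the same direction but past the test in Con alone. All 3 calls were lost with the normexp correction, with no filter on dim probes and with only the groups compared. They were also lost without the culture block and with the methods' t-test after adjustment. Of 16 alternative settings, 7 kept the call in Con, 9 in M1 and 6 in M2. None changed direction, though several of these settings leave the fitted difference as it is. The calls in Con and M2 were lost without any 1 of the 4 arrays compared. That in M1 was lost without the culture 2 array of WT, at 0.48, and without the culture 1 array of KpCKO, at 0.44. Neither stimulus passed the test for this gene. M1 minus Con was 0.35 in WT (adjusted p = 0.0681) and 0.09 in KpCKO (adjusted p = 0.621), and with quantile normalization these turned to −0.24 and −0.37.

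*Fas* encodes the receptor of Fas ligand, which triggers apoptosis through FADD and caspase 8. Its probe (A_51_P345393) was at −0.69 and 0.53 in WT Con and at −0.74 and 1.01 in KpCKO Con. In M2 it was at −0.64 and 0.68 in WT and at −1.06 and 0.58 in KpCKO. With this probe, culture 2 was thus above culture 1 by 1.23 to 1.75 in all 4 groups without M1. The M1 arrays were at 4.22 and 4.21 in WT and at 3.49 and 3.68 in KpCKO, where the cultures lay together and the genotypes did not overlap. The rise with M1 was 4.29 ± 0.456 (SE, n = 2) in WT, 19.6-fold (adjusted p = 0.000211), and 3.45 ± 0.456 in KpCKO, 11-fold (adjusted p = 0.000859). In WT it was 3.68 without the culture 1 and 4.91 without the culture 2 array of M1. KpCKO minus WT in M1 was −0.63, with an interval from −1.71 to 0.45 (adjusted p = 0.365). The 2 probes of this gene disagreed on the call. The dimmer probe, A_52_P73385, was at 2.92 and 2.52 in WT M1 and at 1.79 and 1.5 in KpCKO M1, a difference of −1.07 with an interval from −1.70 to −0.45 (adjusted p = 0.0373 among all probes). Which of the probes stands for the gene therefore decided whether *Fas* counted as lower in KpCKO M1. The gap between the cultures also depended on the probe. The dimmer probe was at −2.09 and −1.66 in WT Con and at −2.35 and −1.89 in KpCKO Con, a smaller gap. In its M1 arrays culture 1 was above culture 2 in both genotypes.

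*Traf1* encodes an adaptor that binds TRAF2 and TNFR2 and is itself an NF-κB target. Its probe (A_51_P343833) was at −0.65 and 0.33 in WT Con and at −1.45 and −0.58 in KpCKO Con. In M1 it was at 6.73 and 7.06 in WT and at 5.59 and 6.17 in KpCKO. In M2 it was at −1.13 and 0.32 in WT and at −1.41 and −0.94 in KpCKO. KpCKO was below WT in each culture and stimulus, though the arrays of the genotypes overlapped in Con and M2. The rise with M1 was 7.05 ± 0.257 (SE, n = 2) in WT, 133-fold (adjusted p = 4.99e-06), and 6.89 ± 0.257 in KpCKO, 119-fold (adjusted p = 8.22e-06). KpCKO minus WT was −1.01 in M1, 2.02-fold lower (interval from −1.62 to −0.40, adjusted p = 0.0424). It was −0.85 in Con (interval from −1.46 to −0.24, adjusted p = 0.189) and −0.77 in M2 (interval from −1.38 to −0.15, adjusted p = 0.243). The response to M1 differed between the genotypes by −0.16, with an interval from −1.02 to 0.70. Of 16 alternative settings, 7 kept the call in M1. It was lost with quantile normalization, at −0.76 (adjusted p = 0.0992), and without any 1 of the 4 M1 arrays, at −1.28 to −0.74. With the difference unchanged at −1.01, it was also lost with no filter on dim probes (adjusted p = 0.0643) and without the culture block (adjusted p = 0.298). The same held with only the groups compared (adjusted p = 0.159) and with the methods' t-test (adjusted p = 0.462).

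**Figure D2:**
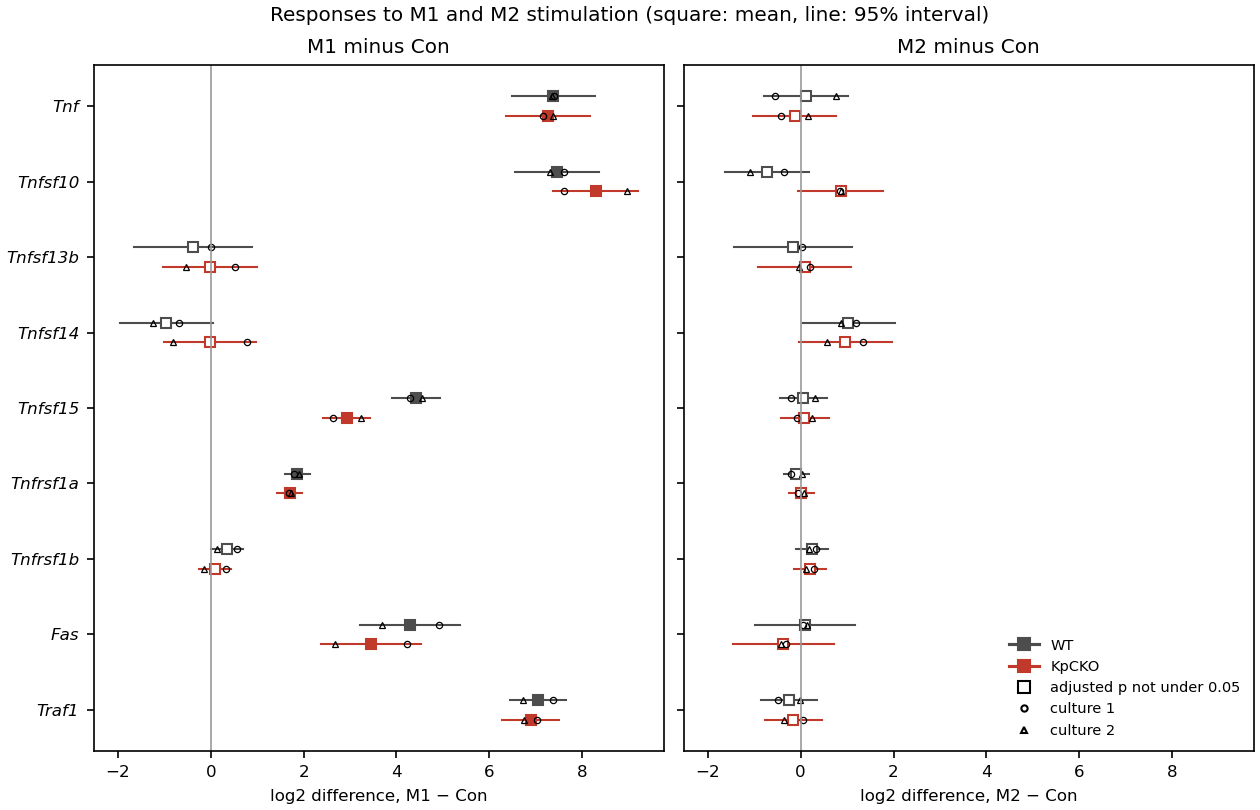
M1 minus Con (left) and M2 minus Con (right) for the 9 genes on the log2 scale (x axis), with squares for the fitted difference, lines for its 95% interval, and circles and triangles for cultures 1 and 2, in WT (grey) and KpCKO (red). Filled squares passed limma's test, which 6 genes did for M1 in each genotype and none did for M2.

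In the order of the 6 groups, the WT M1 group was highest and the KpCKO M1 group came next for the 6 genes that rose with M1. The step between these 2 passed the test for *Tnfsf15* (adjusted p = 0.00562) and *Traf1* (adjusted p = 0.0424) and missed it for *Tnfsf10* (adjusted p = 0.0673), *Tnf* (adjusted p = 0.387), *Fas* (adjusted p = 0.365) and *Tnfrsf1a* (adjusted p = 0.343). Below the M1 groups, no pair of neighbours among the 4 Con and M2 groups of these genes differed by the test, although WT Con and KpCKO Con, which are not neighbours, did so for *Tnfsf10*. With quantile normalization the order of the 2 M1 groups turned for *Tnfrsf1a*, where KpCKO minus WT was 0.09. For *Tnfrsf1b* the 3 KpCKO groups came first and the 3 WT groups after them. The step between the lowest KpCKO group, Con, and the highest WT group, M1, was 0.51 (adjusted p = 0.0179), and these groups also differ in stimulus and slide. For *Tnfsf14* and *Tnfsf13b* no neighbours differed by the test.

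**Figure D3:**
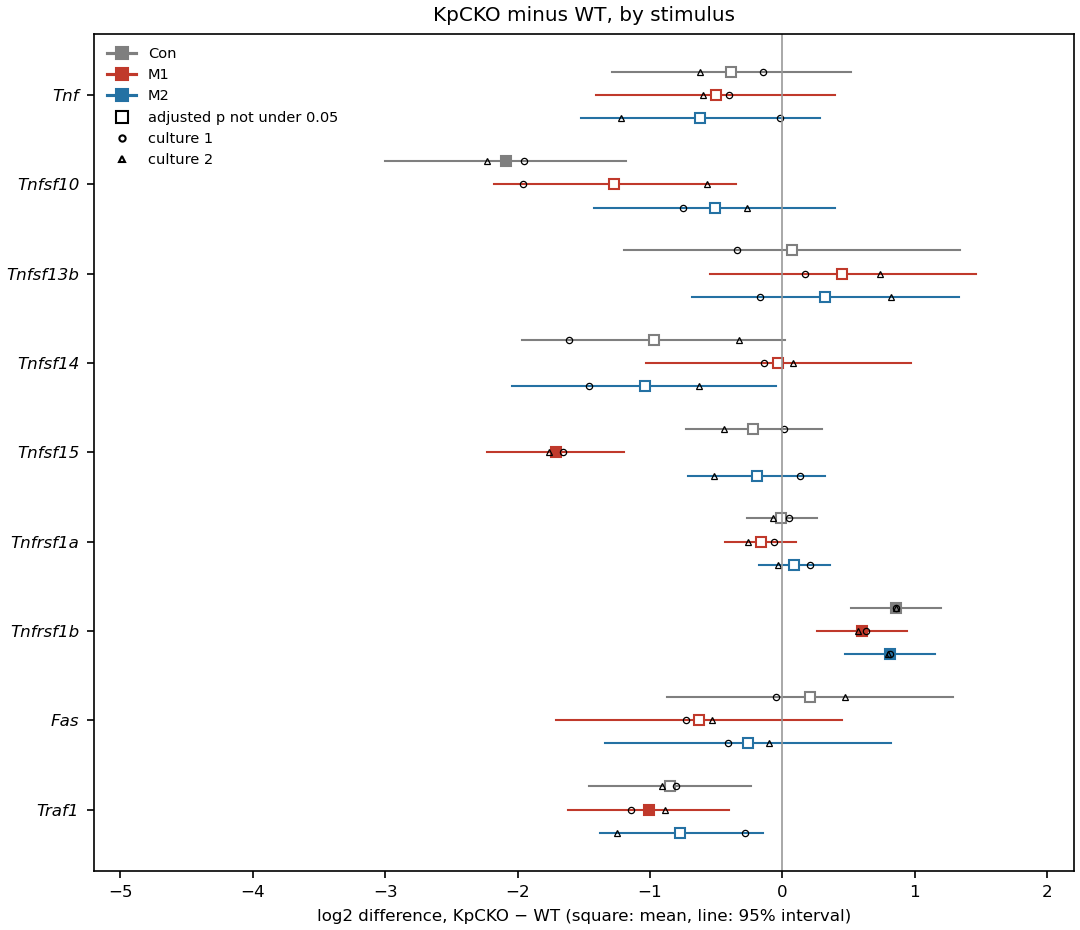
KpCKO minus WT for the 9 genes on the log2 scale (x axis) in Con (grey), M1 (red) and M2 (blue), with squares for the fitted difference, lines for its 95% interval, and circles and triangles for cultures 1 and 2. Filled squares, which passed limma's test, lie right of 0 for Tnfrsf1b in all 3 stimuli and left of 0 for Tnfsf10 in Con and for Tnfsf15 and Traf1 in M1, and the Tnfsf10 square in Con rests on KpCKO arrays not well above background.

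Over the 9 genes the median of KpCKO minus WT was −0.22 in Con, −0.50 in M1 and −0.26 in M2, where the median over all genes tested was 0.002, −0.087 and 0.019. In M1, 7 of the 9 values were below 0, among them *Tnfsf14* at −0.03 and *Tnfrsf1a* at −0.16. After subtraction of the median of all genes these 2 were at 0.06 and −0.08, and only the value of *Tnfsf14* changed sign among the 9. The median M1 response was 4.29 in WT and 2.93 in KpCKO, against 0.126 and 0.0286 over all genes. The responses in WT and KpCKO did not differ for any of the 9 genes by limma's test of that difference, with 1 at an unadjusted p under 0.05 for M1 (*Tnfsf15*) and 1 for M2 (*Tnfsf10*). Those tests called 0.0716% of all genes for M1 (0.0447% higher and 0.0268% lower in KpCKO) and 0.00894% for M2. Scaling moved the values in M1. The median of all genes for M1 minus Con in WT was 0.126 here, −0.0788 with quantile normalization and 0.403 with normexp, and for KpCKO minus WT in M1 it was −0.0868, 0.00444 and −0.217. Relative to that median the 6 rises with M1 in WT were from 1.73 to 7.33.

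In Con the summed markers of macrophages, dendritic cells, T cells and NK cells did not overlap between the genotypes. Those of neutrophils, fibroblasts and B cells did. A sum of linear levels is weighted to the brightest genes of its list. The summed linear level of 7 macrophage markers was 583 to 639 in WT Con and 405 to 469 in KpCKO Con, and *Cd14*, the LPS coreceptor, was lower in KpCKO, at −1.19, −1.33 and −0.86 on the log2 scale in Con, M1 and M2 (adjusted p = 0.0064, 0.00185 and 0.0226). The summed level of 5 dendritic cell markers was 1.52 to 1.59 in WT Con and 7.9 to 15.1 in KpCKO Con, and 7.28 to 7.42 against 13.7 to 19.6 in M1. *Itgax*, which macrophages also express, was higher in KpCKO by 2.99 in Con and 1.37 in M1. The 8 T cell markers summed to 1.72 to 1.94 in WT Con and to 1.01 to 1.07 in KpCKO Con, with *Cd3d* not well above background on any Con array. Of 5 B cell markers, *Ms4a1* and *Pax5* were not well above background in any group, and of 6 NK cell markers *Gzma*, *Prf1* and *Eomes* were not. The 9 neutrophil markers summed to 7.4 to 16.6 in WT Con and 5.18 to 16.2 in KpCKO Con, and the 6 fibroblast markers to 34.6 to 40.8 and 27.8 to 52.9. The part of these markers in the values of the 9 genes was not tested, and in bulk RNA a change in the number of cells of a type and in their RNA per cell cannot be told apart.

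For each of the 6 genes well above background on all 12 arrays, the genes with the most similar pattern were sought among 12111 genes with a symbol that were also above background throughout. The measure was Pearson's r over the 12 arrays, which share mice and slides and fall into M1 and other arrays, so it is given as a description. Next to *Traf1* came *Cd69* (r = 0.9993), *Psmd10* (r = 0.9969) and *Nfkb2* (r = 0.9967). Next to *Tnfrsf1a* came *Acod1* (r = 0.9976), *Tnip1* (r = 0.9966) and *Nfkbib* (r = 0.996). Next to *Tnf* came *Tnfrsf1a* itself (r = 0.995), *Gbp5* (r = 0.9947) and *Cflar* (r = 0.9947). These lists follow the step from the other arrays to M1. Next to *Fas* came *Pola2* (r = 0.9954), *Ptpn6* (r = 0.9941) and *Mapkapk2* (r = 0.9925). Next to *Tnfrsf1b*, with its pattern by genotype, came *Psap* (r = 0.955), *Tctn1* (r = 0.951) and *Ascl3* (r = 0.9414), and next to *Tnfsf14* came *Ankzf1* (r = 0.9703), *Lifr* (r = 0.9605) and *Ppp1r12c* (r = 0.9446).

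Of 13 other ligands of the family, 12 had a probe and 7 passed the filter. In M1 5 of these 7 rose and 1 fell in both WT and KpCKO, where 34.6% of all genes were higher and 28.7% lower in WT and 24.8% and 25.4% in KpCKO. *Lta*, lymphotoxin α, rose by 4.85 in WT and 4.33 in KpCKO, and *Tnfsf9*, the ligand of 4-1BB, by 3.75 and 4.19. *Tnfsf12*, which encodes TWEAK, fell by 3.25 in WT and by 2.28 in KpCKO, and KpCKO minus WT in M1 was 0.96 (adjusted p = 0.00993). *Ltb*, lymphotoxin β, was lower in KpCKO M1 (−0.76, adjusted p = 0.0245). *Tnfsf4*, which encodes OX40 ligand, had a larger log2 difference between the genotypes than any of the 9 genes in each stimulus. In Con it was at −3.05 and −2.45 in KpCKO and not well above background in WT, at −8.66 and −7.73, so it was at least 18.2-fold higher in KpCKO (adjusted p = 0.000312). In M1 it was at −3.63 and −3.48 in WT and at 0.58 and 1.74 in KpCKO, 26.2-fold higher (adjusted p = 0.000448). In M2 KpCKO was at least 6.08-fold higher (adjusted p = 0.000828), with WT again not well above background.

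**Figure D4:**
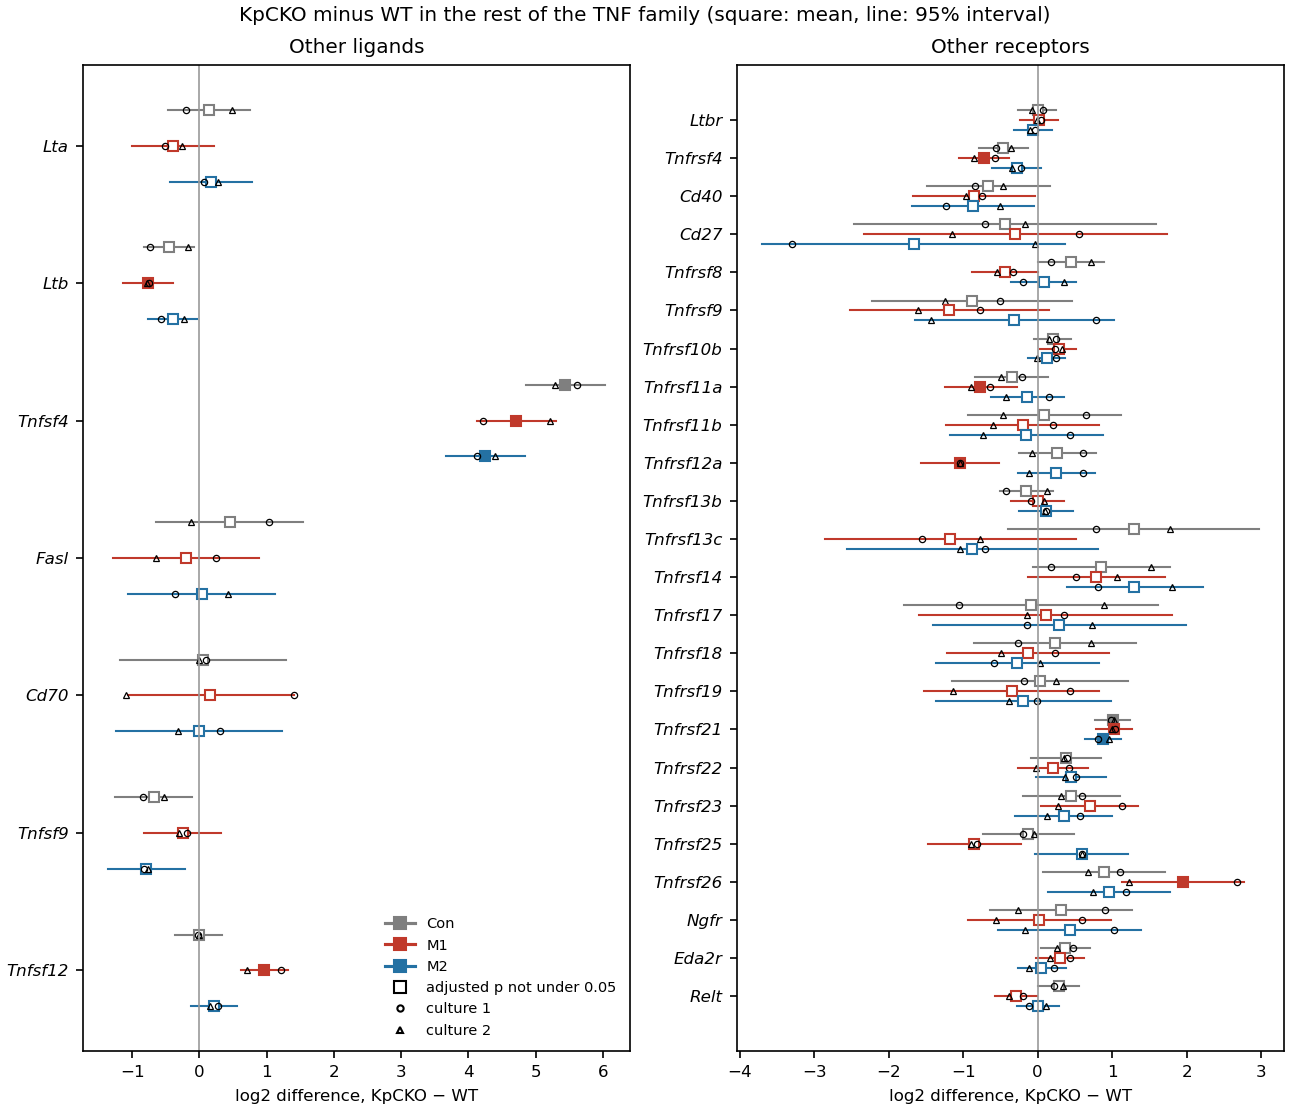
KpCKO minus WT on the log2 scale (x axis) for the other ligands (left) and other receptors (right) of the TNF family that passed the filter on dim probes, in Con (grey), M1 (red) and M2 (blue), with squares for the fitted difference, lines for its 95% interval, and circles and triangles for cultures 1 and 2. The Tnfsf4 squares lie between 4.25 and 5.44 and the Tnfrsf21 squares between 0.88 and 1.02, filled in all 3 stimuli, and the Tnfsf4 values in Con and M2 are fitted to WT arrays not well above background.

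Of 25 other receptors, 24 were tested. In WT M1 raised 9 and lowered 9 of them, against 34.6% and 28.7% of all genes, and in KpCKO it raised 6 and lowered 7, against 24.8% and 25.4%, so these counts lay near the background. *Cd40*, the receptor of CD40 ligand, rose most among these, by 9.97 in WT and 9.78 in KpCKO with M1 and by 3.64 and 3.43 with M2. M2 raised 5 and lowered 2 of the 24 in WT, against 8.63% higher and 8.2% lower among all genes. In KpCKO it raised 1, *Cd40*, against 5.67% of all genes. Between the genotypes 1 receptor differed in Con and in M2, and 5 in M1, against 2.21%, 1.93% and 16% of all genes, again near the background. *Tnfrsf21*, the death receptor DR6, was higher in KpCKO by 1.01 in Con (adjusted p = 0.00554), 1.02 in M1 (adjusted p = 0.00235) and 0.88 in M2 (adjusted p = 0.00964), the same direction as *Tnfrsf1b*. *Tnfrsf26* was higher in KpCKO M1 by 1.95 (adjusted p = 0.016). *Tnfrsf12a*, the receptor of TWEAK, was lower in KpCKO M1 (−1.04, adjusted p = 0.0256), as were *Tnfrsf4*, the OX40 receptor (−0.72, adjusted p = 0.0207), and *Tnfrsf11a*, which encodes RANK (−0.77, adjusted p = 0.0482).

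Of 29 adaptors and signalling proteins of these receptors, M1 raised 22 and lowered 4 in WT and raised 22 and lowered 3 in KpCKO, against 34.6% higher and 28.7% lower among all genes in WT and 24.8% and 25.4% in KpCKO. Among those with the smallest p were *Mlkl*, the executioner of necroptosis (4.33 in WT and 3.70 in KpCKO), *Cflar*, an inhibitor of caspase 8 (4.14 and 3.63), and *Birc3*, a ubiquitin ligase of the TNFR1 complex (3.43 and 3.23). None of the 29 differed between the genotypes in Con or in M2 by limma's test, with 6 and 5 at an unadjusted p under 0.05, while in M1 3 were higher and 8 lower in KpCKO, against 7.41% and 8.6% of all genes. Those lower included *Tank* (−0.78, adjusted p = 0.0093), *Ripk3* (−0.73, adjusted p = 0.01), *Casp8* (−0.88, adjusted p = 0.0112) and *Ripk1* (−0.51, adjusted p = 0.0194). The higher were *Traf5* (1.62, adjusted p = 0.00763), *Ikbkg*, which encodes NEMO (0.88, adjusted p = 0.0236), and *Traf4* (0.78, adjusted p = 0.031). The median over the 29 in M1 was −0.36, against −0.087 over all genes. Of 11 genes of TNF release and *Tnf* mRNA decay, 2 were higher and 3 lower in KpCKO M1, against 7.41% and 8.6% of all genes. *Rhbdf1*, a partner of the TNF-releasing protease ADAM17, was higher (1.47, adjusted p = 0.00298), and *Adam17* itself rose with M1 in WT by 1.08 (adjusted p = 0.000575). *Zfp36l1*, of the family of AU-rich element binding proteins that destabilize mRNA, was lower in KpCKO in Con (−1.37, adjusted p = 0.0332) and M1 (−1.40, adjusted p = 0.0117), and its relative *Zfp36*, which encodes tristetraprolin, was lower in M1 (−0.57, adjusted p = 0.0384).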

How the data were processed

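The authors hybridized Cy3-labelled total RNA to 1-colour Agilent arrays, extracted the spots with Feature Extraction 10.7.3.1 and deposited, per array, background-subtracted intensity values with flags. They also deposited a matrix of log2 values normalized with GeneSpring, which equals log2 of those intensities after subtraction of the array percentile named below and of each probe's median, and was used as an alternative. For this report, outlier spots were dropped, spots of a probe averaged, log2 taken and the 75th percentile of the array subtracted. Probes were named through RefSeq accessions (26695 of 41174), and a gene was read from its brightest probe. Of 32301 genes, 22367 passed a filter (2 arrays of some group well above background) and were fitted with limma 3.58.1 (R 4.3.3) on group and culture, with 5 residual and 1.92 prior degrees of freedom, Benjamini-Hochberg adjustment over all genes and a threshold of 0.05. Intervals are at 95%. Each SE is that of limma's fit, with a spread shared by the 6 groups, and its n is the number of arrays in each group compared. Where neither array of a group was well above background, a fold is a bound, with the dim side of each array set to its lowest reliable signal or to the probe's own, whichever is higher. With 2 arrays a group, the smallest two-sided p of an exact test is 0.333, so none was run.

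Numbers pair the arrays because each culture held 1 mouse of each genotype and each mouse gave 3 arrays. The deviations of 22084 genes from their group means correlated at 0.162 to 0.597 in 15 pairs of groups of the same culture. The alternatives were quantile normalization, normexp with an offset of 50, the authors' matrix, no filter or one on all 12 arrays, the mean of a gene's probes, every probe, no culture block, the mouse as a random block, only the groups compared, trended and robust variances, the methods' t-test and each array left out. The members and lists were chosen with earlier results of these data known. The genes named from the lists are up to 4 with the smallest adjusted p in each direction, with the 9 genes, the 3 most similar to each and the check genes. *Tnfsf13*, *Edar*, *Adam10*, *Cd68*, *Ly6g* and *Clec9a* matched no probe here. The matches of 1 planned promoter motif are not reported here. Plots were made with matplotlib 3.10.9.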

Additional observations from a re-analysis of the deposited data

Results flagged for a closer look

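The M2 response of *Tnfsf10* ran in opposite directions in the 2 genotypes. M2 minus Con was −0.35 and −1.10 in the WT cultures and 0.85 and 0.86 in the KpCKO cultures. The difference between the responses was 1.58 on the log2 scale, with an interval from 0.29 to 2.87 (limma, unadjusted p = 0.0232, adjusted p = 1). The KpCKO Con arrays were not well above background, as was 1 M2 array of each genotype, and with the normexp correction the difference was −0.43.

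For *Fas* the brighter probe also gave opposite directions. M2 minus Con was 0.05 and 0.14 in the WT cultures and −0.31 and −0.43 in the KpCKO cultures, and the difference between the responses was −0.47, with an interval from −2.0 to 1.06 (limma, adjusted p = 1). The dimmer probe gave −0.11 in WT and −0.36 in KpCKO, a difference of −0.24, and so showed no opposite directions, and with the mean of both probes M2 minus Con in WT was −0.01.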

How the results depend on the processing

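Every M1 response called in the 6 genes kept its direction under the alternatives that tested the gene, and 6 were called in each genotype without any 1 array. The methods' t-test, which is unpaired, called 6 in WT and 5 in KpCKO at its unadjusted threshold, and 4 and 0 after Benjamini-Hochberg adjustment. Of 282 alternatives for the 18 calls of the 9 genes, 226 stayed past the threshold, 56 did not and none changed direction. Several of these settings, such as no filter on dim probes and trended and robust variances, leave the fitted difference as it is. They could not have changed a direction. Among the genotype differences, the counts in Con, M1 and M2 were 2, 3 and 1 here. They were 0, 1 and 0 with the normexp correction, 0, 1 and 0 with no filter on dim probes, and 0, 0 and 0 with only the groups compared and with the methods' t-test adjusted, which gave 1, 3 and 0 unadjusted. With the filter on all 12 arrays, which tests 6 of the genes, 1 was called in Con, and with the mean of a gene's probes 0 in M2. With only the groups compared, M2 in WT gave 1 call, *Tnfsf14*, which was then also called in M1 in WT, at −0.96 (adjusted p = 0.0427). With trended and robust variances, *Tnfsf10* was called between genotypes in M1 (adjusted p = 0.0492) and *Tnfrsf1b* for M1 in WT (adjusted p = 0.0388). Leaving out 1 array gave 0 to 0 in Con, 1 to 3 in M1 and 0 to 0 in M2, in fits that take the lone array left in a group to vary like the other groups. Here the culture served as the replicate block. Without that block the counts were 0, 1 and 0, with *Tnfsf15* the 1 still called in M1, and the M1 and M2 responses were unchanged in number at 6, 6, 0 and 0. The cause of these losses was not tested. With normexp, the M1 rise of *Tnfsf15* in KpCKO missed the threshold, at 1.10.

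Of the 63 differences that were not called, 43 changed sign at least once, in 85 of 1024 alternatives, and no value with a changed sign passed the threshold. With quantile normalization the reversed values were 0.16, 0.15 and 0.12 for the genotype difference in the M1 response of *Tnf*, *Tnfrsf1a* and *Traf1*, 0.06 for M1 minus Con in KpCKO of both *Tnfsf13b* and *Tnfsf14*, −0.24 and −0.37 for M1 minus Con of *Tnfrsf1b* in WT and KpCKO, 0.00 for the difference in the M2 response of *Tnfsf15*, −0.09 for M2 minus Con of *Tnfrsf1a* in KpCKO and 0.09 for its genotype difference in M1. With normexp they were 0.52 for M2 minus Con of *Tnfsf10* in WT, −0.80 and −0.43 for its differences in the M1 and M2 response, −0.78 for that of *Tnfsf15* in M2 and 0.03 for that of *Tnfrsf1b* in M2, 0.05 for M2 minus Con of *Tnfsf13b* in WT, 0.03 for M1 minus Con of *Tnfsf14* in KpCKO, 0.03 for the genotype difference of *Tnfsf15* in Con and 0.00 for M2 minus Con of *Tnfrsf1a* in KpCKO, which was also 0.00 in the authors' matrix. With only the groups compared *Tnfsf13b* gave 0.01 and 0.03 for M1 and M2 in WT and −0.34 between genotypes in Con, where it gave −0.01 without the replicate block. With the mean of a gene's probes, *Tnfrsf1b* gave −0.05 for M1 in KpCKO and *Fas* −0.01 for M2 in WT and −0.01 between genotypes in Con.

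Leaving out 1 array moved the following across 0. For *Tnf* the ranges were −0.61 to 0.82 and −0.48 to 0.22 for M2 in WT and KpCKO, −1.34 to 0.10 between genotypes in M2, and −0.46 to 0.23 and −0.95 to 0.48 for the difference in the M1 and M2 response. For *Tnfsf13b* they were −0.99 to 0.01 and −0.45 to 0.03 for M1 and M2 in WT, −0.53 to 0.51 and −0.43 to 0.61 in KpCKO, −0.34 to 0.70, −0.05 to 0.95 and −0.05 to 0.69 between genotypes in Con, M1 and M2, and −0.24 to 0.98 and −0.37 to 0.66 for the differences in response. For *Tnfsf14* they were −0.73 to 0.70 for M1 in KpCKO, −0.42 to 0.36 between genotypes in M1 and −0.78 to 0.64 for the difference in the M2 response. For *Tnfsf15* they were −0.22 to 0.33 and −0.22 to 0.39 for M2 in WT and KpCKO, −0.52 to 0.09 and −0.47 to 0.08 between genotypes in Con and M2, and −0.28 to 0.33 for the difference in the M2 response. For *Tnfrsf1a* they were −0.22 to 0.04 and −0.07 to 0.10 for M2 in WT and KpCKO, −0.09 to 0.08 and −0.03 to 0.22 between genotypes in Con and M2, and −0.03 to 0.23 for the difference in the M2 response. For *Tnfrsf1b* they were −0.06 to 0.25 for M1 in KpCKO and −0.18 to 0.07 for the difference in the M2 response. For *Fas* they were −0.08 to 0.28 and −0.81 to 0.07 for M2 in WT and KpCKO, and −0.23 to 0.65 and −0.62 to 0.11 between genotypes in Con and M2. For *Traf1* they were −0.65 to 0.15 and −0.35 to 0.02 for M2 in WT and KpCKO, and −0.43 to 0.11 and −0.31 to 0.49 for the differences in the M1 and M2 response. The 2 arrays of a group limit every value, and signal over background limits *Tnfsf10* and *Tnfsf15* without M1.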

Other observations

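The probes of *Tnf*, *Tnfrsf1a*, *Tnfrsf1b* and *Fas* were printed 9 or 10 times among the spots used on each array, and the SD of the log2 signal between those spots was from 0.0203 to 0.0897. The SD between the 2 cultures of a group ran from 0.00497 (*Fas* in WT M1) to 1.24 (*Fas* in KpCKO Con) for the same 4 genes. It rests on 2 values, each a mean over the spots, so it is not a like measure to the SD between single spots.

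For *Traf1* culture 2 was above culture 1 in all 6 groups, by 0.33 to 1.45, whereas for *Tnfrsf1b* culture 2 minus culture 1 was between −0.56 and −0.09 in all 6. The mice of the cultures differed in sex, and culture and sex cannot be told apart.

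Some ligand and receptor pairs had genotype differences of opposite sign. In KpCKO M1, *Tnfsf12* was higher while its receptor gene *Tnfrsf12a* was lower, and *Tnfsf4* was higher while its receptor gene *Tnfrsf4* was lower. For *Tnf*, the receptor gene *Tnfrsf1b* was higher in KpCKO, with *Tnfrsf1a* at −0.16 and *Tnf* at −0.50, neither past limma's test. These pairs were picked after their values were seen, and the differences between the genes of a pair were not tested.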
